A study of Mus musculus with 8 samples.

Results

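The genes described here are 10 regulators of the mammary luminal lineage: the receptors Esr1, Pgr and Prlr, the signal transducers Stat5a and Stat5b, and the transcription factors Gata3, Foxa1, Elf3, Elf5 and Ehf. Their probes were found by gene symbol or by the accession printed beside it, which gave 14 probes among the 24341 on the array. Of the 10 genes, 4 had 2 probes and 6 had 1. Expression was measured in 8 spontaneous mammary tumours, 4 from mice given control cream and 4 from mice given imiquimod cream for 1 cycle. Imiquimod activates the innate immune receptor TLR7. All 8 tumours arose in FVB/N-TgN (MMTVneu)-202Mul mice, which carry neu, the rat form of the ErbB2 receptor gene, behind the mouse mammary tumour virus promoter. That promoter is active in mammary epithelium and responds to steroid hormones, and both groups carry it. The labels give neither ages nor whether each tumour had its own animal, so the p-values reflect the variation among these 8 samples, part of which may be technical.

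In the mammary gland, oestrogen and progesterone act through the nuclear receptors Esr1 and Pgr in a subset of luminal cells. Prolactin binds Prlr on the cell surface, Jak2 phosphorylates Stat5a and Stat5b, and these enter the nucleus and switch on milk protein genes together with Elf5. Gata3 and Foxa1 maintain the hormone-responsive luminal state, and Elf3 and Ehf are Ets factors of epithelia. Tumours of neu mice are generally luminal in type and lack oestrogen receptor.

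Values are log2 signals as deposited, and a difference is the imiquimod mean minus the control mean on that scale. Array medians lay between 6.816 and 6.824, and probes with a mean under 6.639, the dimmest 33.3%, were treated as too dim for the test between groups. With limma, 569 of 13142 units (genes, and probes without a gene name) passed an adjusted p below 0.05, which is 4.33% (2.13% higher and 2.20% lower with imiquimod). None of the 8 member genes that were bright enough to be tested passed, and 1, Prlr, had an unadjusted p below 0.05, against 20.5% of all units. Their median difference was 0.02, and that of all units was -0.02. The groups overlapped in each of the 14 probes, 10 of which were over the dim limit, and 9.01% of all probes had groups that did not overlap. When every probe was tested with no filter, 2.64% of all probes passed and 0 of the 14 did. With only 8 genes and 14 probes, counts of 0 are near these shares and do not set the members apart.

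**Figure D1:**
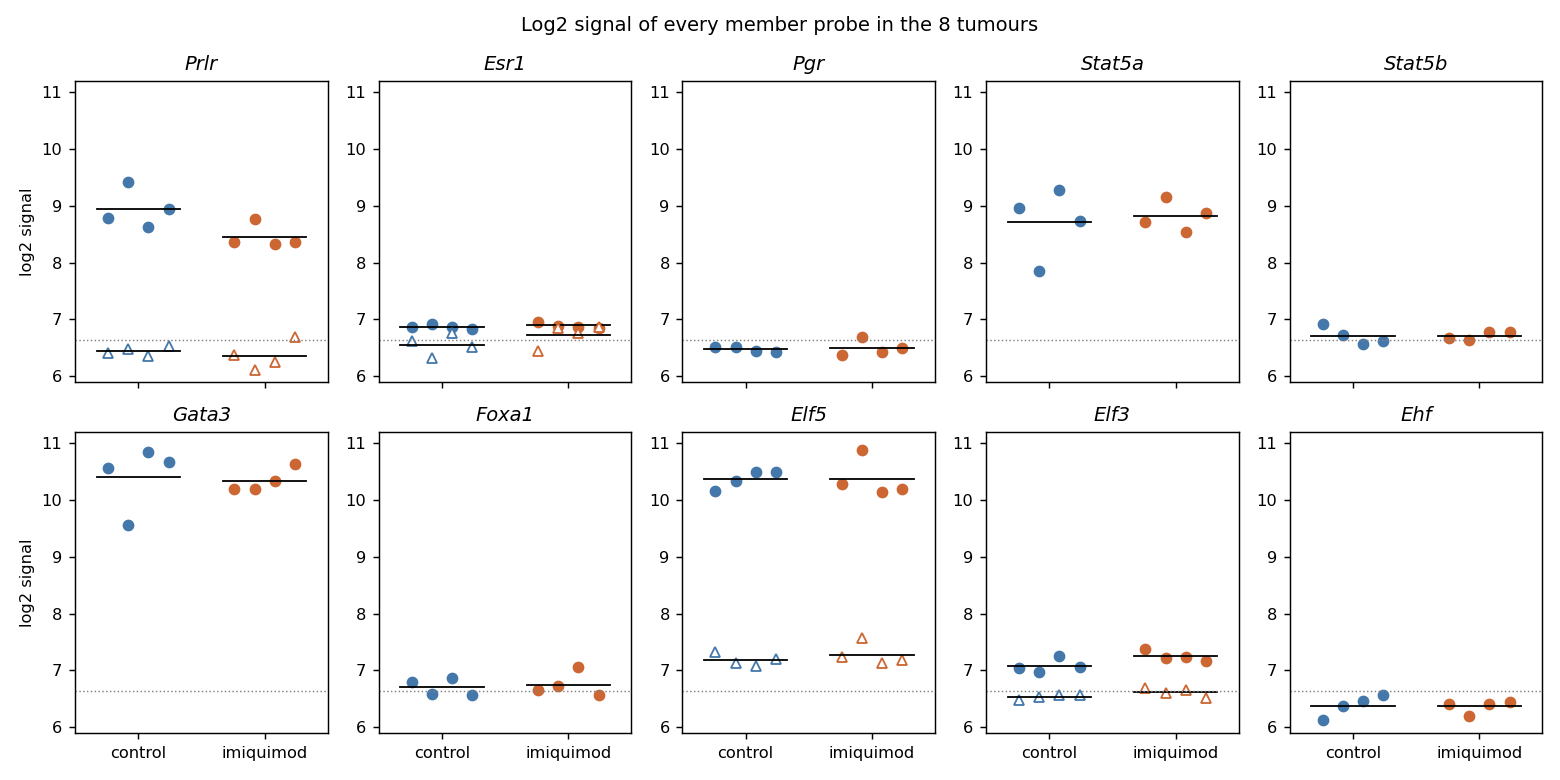
Log2 signal (vertical axis) of each member gene in 4 control and 4 imiquimod tumours, drawn from replicate 1 on the left to 4 on the right. Filled circles are the brighter probe, open triangles the second probe, black lines group means, and the dotted line the limit of the dim filter. Gata3 and Elf5 lie near 10, Stat5a and Prlr near 9, and the other 6 genes between 6.12 and 7.38.

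The tumours carried the epithelial signal that their label implies. Krt8 and Krt18, the paired keratins of luminal cells, had log2 signals of 11.07 to 11.49 and 11.53 to 11.97 over the 8 tumours. Cldn3, a tight junction protein, lay between 11.00 and 12.15. The probe of the epithelial adhesion molecule Epcam stayed between 6.52 and 6.94, near the array medians. The mouse Erbb2 probe gave a difference of 0.02 (SE 0.10, adjusted p = 0.929), and whether it reads the rat transgene is unknown.

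Prlr showed the largest difference among the members tested, and it did not pass. On its brighter probe the 4 control tumours, 1 to 4, read 8.78, 9.42, 8.63 and 8.94, a mean of 8.94 ± 0.34 (SD, n = 4). The imiquimod tumours read 8.35, 8.77, 8.33 and 8.36, a mean of 8.45 ± 0.21 (SD, n = 4). Imiquimod 1, 3 and 4 lay within a narrow band below every control, and imiquimod 2 stood above control 3 and just under control 1, so the groups overlapped. The difference was -0.49 (SE 0.17, 95% interval -0.88 to -0.10, unadjusted p = 0.0204, adjusted p = 0.149). In linear terms the interval runs from 0.542 to 0.936 of the control signal, with no correction for multiple tests. Background correction is not given, so the interval describes the signal of the probe and does not bound the change of the transcript. Left out in turn, each tumour gave a difference between -0.60 (without imiquimod 2) and -0.33 (without control 2), with adjusted p from 0.116 to 0.299.

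A second Prlr probe, which cites the same transcript record, was below the dim limit. Its readings were 6.41, 6.49, 6.36 and 6.53 in controls and 6.37, 6.11, 6.24 and 6.69 with imiquimod. Here imiquimod 4 was the highest tumour and imiquimod 2 the lowest, whereas on the brighter probe imiquimod 2 was the highest of the 4 imiquimod tumours. The difference was -0.10 (SE 0.12, adjusted p = 0.774 over all probes). One further probe, named AI987712 in the file, carries a symbol that is now listed as a synonym of Prlr, but its accession does not match the gene, and it was not counted. It read 6.99 to 7.06 in controls and 6.90 to 7.08 with imiquimod.

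Among the genes whose levels ran most like the brighter Prlr probe over the 8 tumours were Gstt2 (Pearson r = 0.974), H1f10 (0.959), Adamts19 (0.957) and Gm5128 (0.953). These r are among the highest over 13006 named genes and are given with no test. The points share 2 treatment groups, and all 4 had lower means with imiquimod, from -0.81 for Gstt2 to -0.10 for Adamts19. None of the 4 passed, with adjusted p from 0.0551 to 0.447.

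The steroid receptors lay close to the dim limit in every tumour, so little can be read from their differences. The brighter Esr1 probe read 6.86, 6.91, 6.87 and 6.82 in controls and 6.96, 6.89, 6.87 and 6.86 with imiquimod. All 8 values stood within 0.14 of each other, close to the array medians. The difference was 0.03 (SE 0.06, 95% interval -0.11 to 0.16, adjusted p = 0.855). The other Esr1 probe ranged from 6.31 in control 2 to 6.87 in imiquimod 4, with a difference of 0.17 (SE 0.12, adjusted p = 0.572 over all probes). The Pgr probe lay under the limit, at 6.42 to 6.52 in controls and 6.37 to 6.68 with imiquimod. It gave a difference of 0.02 (SE 0.08, adjusted p = 0.948 over all probes). Where signal is close to the floor of an array, a real change can be compressed, and these narrow intervals describe the probe rather than the transcript.

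Stat5a, the prolactin transducer that dominates in mammary epithelium, was well above the dim limit and did not pass. Control tumours 1 to 4 read 8.97, 7.86, 9.27 and 8.73, and imiquimod tumours read 8.72, 9.16, 8.54 and 8.88. Control 2 was the lowest of the 8 tumours by 0.68, and all 4 imiquimod values fell inside the range of the controls. The means were 8.71 ± 0.61 and 8.83 ± 0.26 (SD, n = 4 each), a difference of 0.12 (SE 0.28, adjusted p = 0.864). The 95% interval, -0.51 to 0.75, still allows 0.702 to 1.68 times the control level. Without control 2 the difference was -0.17 (adjusted p = 0.644), so its sign rested on that tumour. Stat5b, its close paralogue, was dim at 6.56 to 6.92 in controls and 6.63 to 6.78 with imiquimod, with a difference of 0.00 (SE 0.09, adjusted p = 0.987). As the 2 genes are near-identical in coding sequence and the probe sequences were not used here, cross-reading between them was not tested.

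Gata3, the zinc finger factor that specifies luminal cells, was among the brightest members. It read 10.57, 9.57, 10.86 and 10.67 in control tumours 1 to 4 and 10.20, 10.19, 10.34 and 10.63 with imiquimod. Control 2 was again the lowest tumour, and the other 3 controls overlapped only with imiquimod 4. The means were 10.42 ± 0.58 and 10.34 ± 0.21 (SD, n = 4 each), a difference of -0.08 (SE 0.26, 95% interval -0.66 to 0.51, adjusted p = 0.908). Without control 2 it was -0.36 and still did not pass (adjusted p = 0.162). It was 0.07 without control 3 and 0.01 without control 4. Foxa1, the forkhead factor that opens chromatin for the oestrogen receptor, read 6.58 to 6.87 in controls and 6.56 to 7.05 with imiquimod. Its values sat near the dim limit in both groups, and its difference was 0.04 (SE 0.12, adjusted p = 0.888).

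Elf5, the Ets factor of the alveolar, milk-producing lineage, had nearly the same mean in both groups. Its brighter probe read 10.16, 10.35, 10.50 and 10.49 in controls and 10.28, 10.89, 10.14 and 10.20 with imiquimod. Imiquimod 2 stood 0.39 above every other tumour, and imiquimod 3 was the lowest. The means were 10.37 ± 0.16 and 10.38 ± 0.35 (SD, n = 4 each), and the difference was 0.00 (SE 0.17, adjusted p = 0.995). The 95% interval of -0.37 to 0.38 leaves room for 0.772 to 1.30 times the control level. On the second, dimmer probe imiquimod 2 was the highest tumour too, at 7.56 against 7.08 to 7.33 in the others, and the difference was 0.10 (SE 0.10, adjusted p = 0.733 over all probes). Left out, that tumour brought the difference of the brighter probe to -0.17 (adjusted p = 0.44).

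Elf3, which is expressed in many simple epithelia, read 7.04, 6.97, 7.26 and 7.06 in controls and 7.38, 7.23, 7.24 and 7.17 with imiquimod. All 4 imiquimod tumours lay above 3 of the controls, while control 3 stood among them. The difference was 0.17 (SE 0.08, 95% interval -0.02 to 0.36, adjusted p = 0.292), and the second probe, under the limit, gave 0.08 (SE 0.06, adjusted p = 0.618 over all probes). Ehf, a relative of Elf3, was under the limit at 6.12 to 6.56 in controls and 6.20 to 6.44 with imiquimod, with a difference of -0.01 (SE 0.10, adjusted p = 0.976 over all probes).

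**Figure D2:**
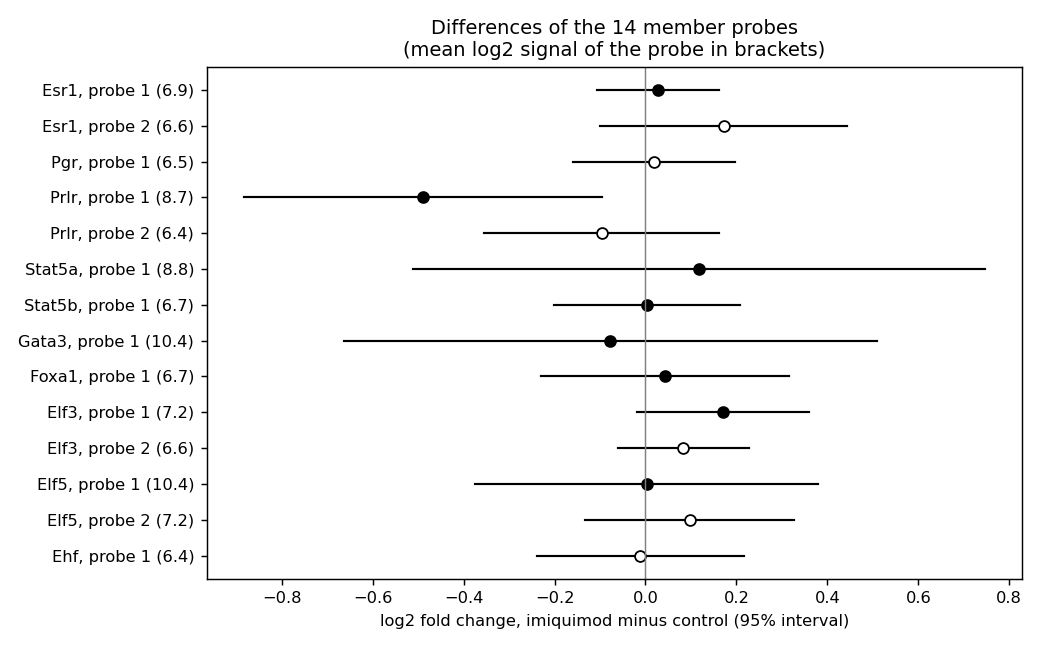
Difference between imiquimod and control means (horizontal axis, log2 scale) with its 95% interval for each of the 14 member probes. Filled circles mark the probe that stood for a gene in the test over 13142 units, and open circles the others, fitted over all 24341 probes. The interval of the brighter Prlr probe, -0.88 to -0.10, is the single one that leaves out 0, with no correction for multiple tests.

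Stat5a and Gata3 varied more among control tumours, with SDs of 0.61 and 0.58, than among imiquimod tumours, with SDs of 0.26 and 0.21. The difference in spread was not tested. Control 2 had the lowest signal of the 8 tumours for both genes and the highest for Prlr. Among 35 other luminal and epithelial transcription factors tested, 11 were lowest in control 2 and 6 were highest there, against 14.6% and 17.6% of all units. Those lowest in control 2, picked here after their values were seen, included the membrane receptor Notch1, which read 8.20 against 8.78 to 9.89 elsewhere. Likewise Grhl1, a grainyhead factor of epithelia, read 8.64 against 9.15 to 9.83. Krt8 and Krt18 in control 2, at 11.29 and 11.77, were inside the range of the other tumours. So was Krt7, another simple keratin, at 11.02 against 9.61 to 10.51 in the other controls and 9.71 to 11.11 with imiquimod.

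Partners of the prolactin receptor mostly did not pass. Of 22 listed genes of prolactin and growth hormone signalling 19 were tested, 1 rose and 1 fell, and the median difference was 0.08 against -0.02 for all units. Those that passed are 10.5% of the 19, against 4.33% of all units. Socs3, an inhibitor of Jak kinases that many cytokines induce, rose by 2.43 (SE 0.31, adjusted p = 0.00513), from 6.94 to 7.62 in controls to 8.88 to 10.22 with imiquimod. Ccnd1, the G1 cyclin that mammary alveolar growth needs, fell by 1.60 (SE 0.34, adjusted p = 0.0349), with 11.82 to 13.03 in controls and 9.91 to 11.24 with imiquimod. Its call was lost without any 1 of the controls or without imiquimod 2 or 3, with adjusted p of 0.0530 to 0.0890. Dimmer Ccnd1 probes gave -1.49, -1.26 and -0.85 (adjusted p = 0.0288, 0.0447 and 0.0367 over all probes). A further 3 genes close to the receptor, picked with their values in view, did not pass. Jak2, the kinase bound to Prlr, read 7.58 to 8.03 in controls and 8.14 to 8.24 with imiquimod, groups that did not overlap (as in 12.6% of all units), with a difference of 0.39 (SE 0.10, adjusted p = 0.0571). It passed without control 2 (0.46, adjusted p = 0.0280) and with array weights (adjusted p = 0.0357). It did not pass without control 1, 3 or 4 (adjusted p = 0.0998, 0.0923 and 0.127) or without imiquimod 1 (adjusted p = 0.0827). Nor did it pass with a replicate block (adjusted p = 0.111) or an intensity trend (adjusted p = 0.0795). On dimmer Jak2 probes the groups overlapped, with differences of -0.03 and 0.06 (adjusted p = 0.927 and 0.823 over all probes). Cish and Socs2, which Stat5 induces and which damp its signalling, had differences of -0.07 (adjusted p = 0.919) and 0.14 (adjusted p = 0.672). Socs2 was bright in all 8 tumours, between 11.51 and 12.20.

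**Figure D3:**
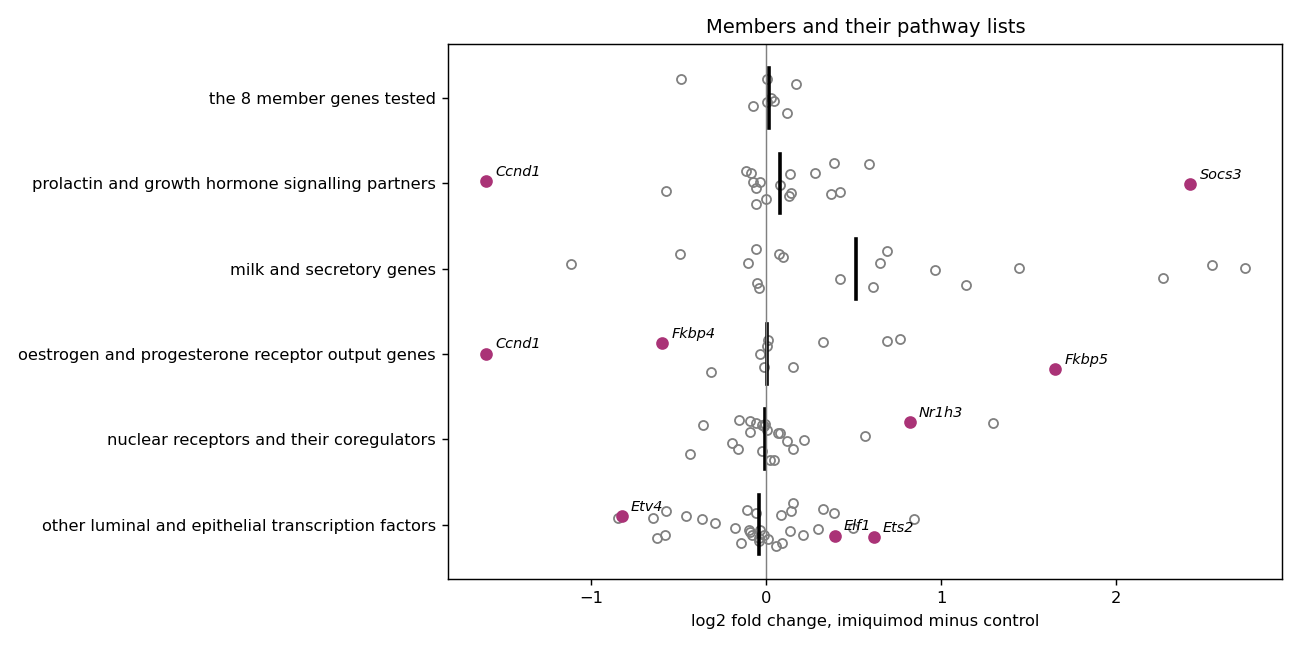
Difference between imiquimod and control means (horizontal axis, log2 scale) of each gene tested, for the members and 5 lists of related genes. Filled, named points passed an adjusted p below 0.05, open points did not, and black bars are list medians. The 8 members lie between -0.49 and 0.17 with no filled point, which for 8 genes is near the 4.33% of all units that passed. In the lists from top to bottom, filled points are 10.5%, 0%, 25%, 4.35% and 8.57% of the genes tested.

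Among milk protein and secretory genes, the best known outputs of Prlr, Stat5a and Elf5, 0 of 18 tested passed (20 listed, 3 with an unadjusted p below 0.05). The median difference of the list was 0.52. Some of these genes varied strongly between tumours, while Csn3 stayed between 13.5 and 14.1 and Wfdc18 between 13.3 and 13.7. Folr1, with the smallest p of the list, had a difference of -1.11 (adjusted p = 0.0832), and Lalba had -0.49. Imiquimod 2 was the highest tumour for 11 of the 18, against 10.3% of all units, and it was also the highest for both Elf5 probes. The whey protein Wap read 7.49 to 8.06 in controls and 7.71, 14.51, 10.76 and 8.32 in imiquimod 1 to 4, a difference of 2.55 that did not pass (adjusted p = 0.305) and that was 1.15 without imiquimod 2. Lao1, an amino acid oxidase secreted in mouse milk, read 7.09 to 7.68 in controls and 7.50, 13.05, 10.33 and 9.44 with imiquimod, a difference of 2.74 (adjusted p = 0.142) that passed without imiquimod 1 (3.59, adjusted p = 0.0286) and was 1.74 without imiquimod 2. Beta-casein, Csn2, read 11.55, 13.35, 9.70 and 10.29 in controls and 10.64, 15.07, 14.55 and 13.71 with imiquimod (adjusted p = 0.266). Imiquimod 1 was therefore at control level for Wap, Lao1 and Csn2. These 3 have the highest differences of the list and were named after their values were seen. The mean of the list, relative to the control mean, was -0.33, 2.07, 0.64 and 0.25 in imiquimod 1 to 4 and -0.11 to 0.13 in controls. Imiquimod 3, second on that scale, had the lowest signal of all 8 tumours for both Elf5 and Prlr on their brighter probes, but by only 0.024 and 0.029.

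**Figure D4:**
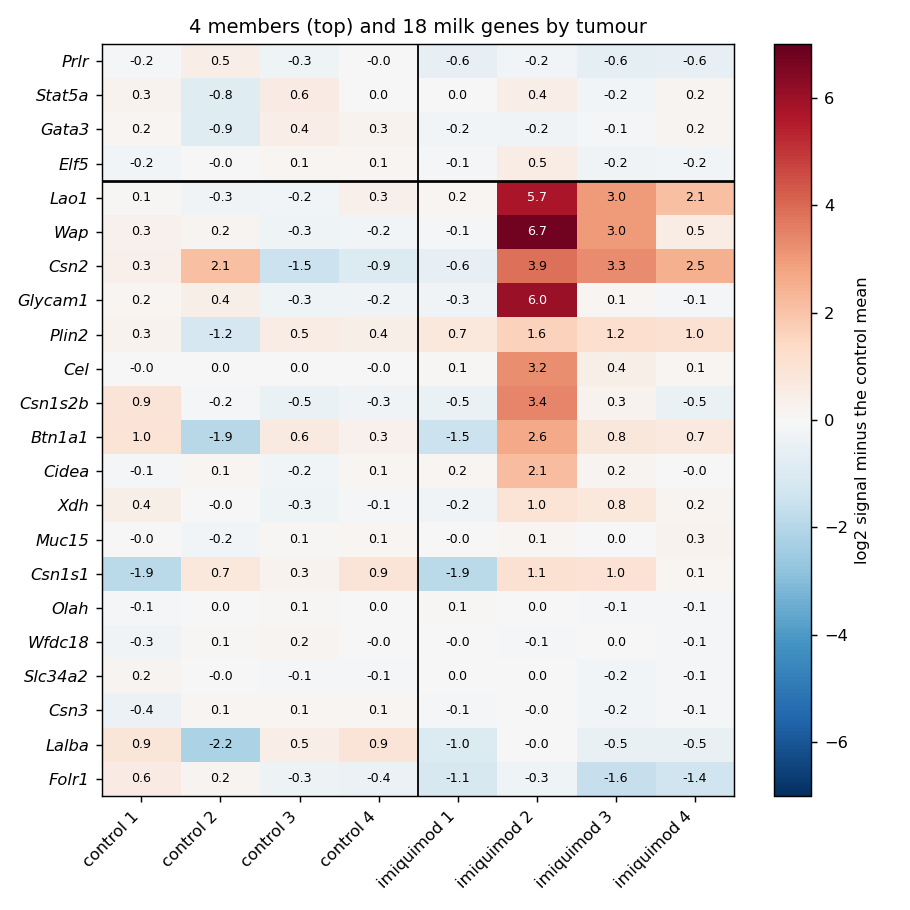
Log2 signal minus the mean of the 4 controls (colour and printed value) for 4 members, above the black line, and 18 milk and secretory genes, below it, in each tumour. Members stay within 0.9 of their control mean, while Wap and Glycam1 reach 6.7 and 6.0 above it in imiquimod 2.

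Of 20 listed oestrogen and progesterone receptor outputs 12 were tested, 1 rose and 2 fell, with a median of 0.01. Those 3 are 25% of the 12, against 4.33% of all units, and no test of the list was run. One of the 3, Ccnd1, is also counted in the prolactin list. Fkbp5, a co-chaperone of steroid receptors that progesterone and glucocorticoids both induce, rose by 1.65 (SE 0.24, adjusted p = 0.00942), from 7.62 to 7.79 in controls to 8.56 to 9.91 with imiquimod. Its partner co-chaperone Fkbp4, which favours hormone binding, fell by 0.59 (SE 0.12, with an adjusted p of 0.0277). Leaving out any 1 control or imiquimod 2 ended that call (adjusted p up to 0.0715). Ccnd1 is the other that fell, and Greb1 and Wnt4 were too dim to be tested. Areg, an EGF receptor ligand that oestrogen induces in the gland, read 6.67 to 6.84 in controls and 6.66 to 7.52 with imiquimod, and did not pass (adjusted p = 0.692).

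Of 30 other nuclear receptors and coregulators 23 were tested, and 1 rose and none fell, with a median of -0.01. The 1 gene that passed is 4.35% of the 23, about the share of all units (4.33%). That gene was Nr1h3, the liver X receptor of macrophages and liver, at 0.82 (SE 0.14, adjusted p = 0.018). Its call was lost without control 1 (adjusted p = 0.0530) or imiquimod 3 (adjusted p = 0.0542), and a dimmer second probe gave 0.08. The probe of the second oestrogen receptor, Esr2, ranged from 6.55 to 6.90 and did not pass.

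Of 38 other luminal and epithelial transcription factors 35 were tested, 2 rose and 1 fell, with a median of -0.04. These are 8.57% of the 35, against 4.33% of all units. Ets2 and Elf1, broadly expressed Ets factors that leukocytes also carry, rose by 0.61 (SE 0.10, adjusted p = 0.0141) and 0.39 (SE 0.09, adjusted p = 0.0449). Etv4, an Ets factor induced by ERK signalling, fell by 0.82 (SE 0.16, adjusted p = 0.0286). The Elf1 call was lost in 7 of 8 single-tumour omissions (adjusted p up to 0.112) and that of Etv4 in 6 of 8 (up to 0.0796), while Ets2 passed in all 8. Tfap2c, Cebpb, Sox9 and Lmo4, other bright factors of mammary epithelium, had differences of -0.29, 0.05, 0.08 and -0.65 and did not pass.

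Among lists for other cell types and for proliferation, most macrophage and proliferation genes passed and few of the others did. In bulk samples such as these, fewer cells of a type and less RNA per cell cannot be told apart. Of 13 macrophage and monocyte markers tested 8 rose, among them Fcgr4 (3.43), Cd14 (2.55), Aif1 (1.56) and C1qb (1.36). The mean of the list relative to the control mean was 0.79 to 1.44 with imiquimod and -0.10 to 0.13 in controls. A dimmer Aif1 probe gave 0.40 and did not pass (adjusted p = 0.110 over all probes). Of 15 proliferation genes 14 fell, such as Mki67 by 1.23, Prc1 by 1.55, Mcm5 by 0.99 and Tpx2 by 0.94. Dimmer Mki67 probes gave -0.06 and -0.08 and did not pass (adjusted p = 0.769 and 0.660 over all probes). Fibroblast markers had 1 of 11 pass, the matrix proteoglycan Dcn, at 2.35 (SE 0.54, adjusted p = 0.0483). That call was lost without any 1 tumour but imiquimod 1 (adjusted p up to 0.122). Dimmer Dcn probes gave 1.69, 1.47 and 0.04 (adjusted p = 0.0577, 0.0403 and 0.874 over all probes). Of 7 basal and myoepithelial markers 1 rose, Krt14 (1.39, SE 0.30, adjusted p = 0.0361), whose call was lost without any 1 control or imiquimod 1 or 3 (up to 0.0949). Of 13 luminal cell markers tested 2 rose, 1 of them the surface mucin Muc1 (1.14, SE 0.27, adjusted p = 0.0486). Muc1 lost its call in 5 of the 8 single-tumour omissions (adjusted p up to 0.115). Its dimmer probes passed too, with differences of 1.36 and 0.96 (adjusted p = 0.0297 and 0.00973 over all probes). None of 7 lymphocyte, 8 adipocyte, 6 endothelial, 8 skeletal muscle or 5 skin keratinocyte markers passed. The list mean of skeletal muscle was 2.02 and 1.98 in imiquimod 3 and 4 and at most 0.68 elsewhere, and that of adipocytes was 1.19 and 1.05 in imiquimod 2 and 3. The part of these other cells in the levels of the 10 genes was not tested.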

How the data were processed

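The authors deposited 1 table of log2 signals from Illumina bead arrays, with a column for each of 8 samples. By the values, their distributions are nearly equal, but the highest value differs between the groups, so any step run separately on each group cannot be told apart from treatment. Of tools, the submitters' processing notes list affy alone, without a version. Background correction is not given in the sources used here. The deposited non-normalized table has 16 per-sample columns whose numbers match no label, so they were not used, and the planned test was run on the log2 values.

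Probes were named through RefSeq accessions (20038), current symbols (1620) or synonyms (1736). The dimmest 33.3% of probes by mean were left out (16227 kept), and the brightest probe stood for each gene, giving 13142 units. Groups were compared by a moderated linear model without covariates (lmFit, then eBayes, in limma 3.58.1 under R 4.3.3), two-sided, adjusted by Benjamini-Hochberg over all units. Probes outside that set were fitted over all 24341 probes. Precision is limited by the number of arrays. The script was tested on simulated data.

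The 10 genes and the gene lists were chosen with earlier results of these data known. The rule for named genes takes the members, up to 4 genes per list that passed with the smallest p, the 5 most like Prlr, and Erbb2. Some genes that it picks are not reported here, and every other named gene, none of which passed, was chosen after its values were seen. Over all units same-numbered tumours did not deviate together (correlations -0.0212 to 0.0353), and the labels do not say whether equal numbers mark a pair. Alternatives covered scaling, background, filter, probe choice, variance model, array weights, a replicate block, the threshold and left-out tumours. A pair of joint omissions was added after seeing the data.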

Additional observations from a re-analysis of the deposited data

Results flagged for a closer look

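In 98 groups of 4 tumours (member probes, list means and named genes), 8 had 1 tumour far from the other 3 by Dixon's criterion, where chance gives about 5%. For the brighter Prlr probe imiquimod 2 read 8.77, against 8.33 to 8.36 in the other imiquimod tumours. In the Ehf probe imiquimod 2 read 6.20, against 6.41 to 6.44, under the dim limit. The list mean of skin keratinocyte markers was 0.83 in imiquimod 1, while the other treated tumours had -0.06 to 0.05. Aif1 read 9.01 in imiquimod 2 (9.91 to 9.95 in the others), Dcn 8.44 in imiquimod 1 (10.29 to 10.54) and Fcgr4 11.66 in imiquimod 4 (10.14 to 10.36). Among controls, control 2 stood apart for Socs3, at 7.62 against 6.94 to 6.99, and for Mcm5, at 10.09 against 9.81 to 9.85.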

How the results depend on the processing

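No member passed under any alternative except the replicate block, which called 1, Prlr (difference -0.49, adjusted p = 0.0436). Over all units same-numbered tumours did not deviate together, but on the brighter Prlr probe tumour 2 was the highest and tumour 3 the lowest of each group. The labels do not say whether equal numbers mark a pair, so whether the block is warranted was not tested. The block moved the count over all units from 569 to 501. Prlr stayed negative in all 20 alternatives, but those that change only the filter, the probe choice, the intensity trend, the block or the threshold keep its estimate at -0.49 and could not turn its sign. Signs that turned were those of differences close to 0: Elf5 with array weights (-0.012), Stat5a and Elf5 without control 2 and imiquimod 2 together (-0.28 and -0.18), and Stat5b and Foxa1 without imiquimod 3 and 4 together (-0.061 and -0.014). With single tumours left out, differences ran from -0.17 to 0.082 for Elf5, -0.17 to 0.31 for Stat5a, -0.045 to 0.075 for Stat5b, -0.36 to 0.070 for Gata3 and -0.058 to 0.11 for Foxa1. Over the same omissions Erbb2 ran from -0.054 to 0.085 and Cish from -0.30 to 0.20. Cish had 0.44 without imiquimod 3 and 4 together, and Socs2 -0.044 without control 2 and imiquimod 2 together. The 569 calls over all units became 278 to 911 with 1 tumour left out, and the 911 were those without imiquimod 1. There were 112 without imiquimod 3 and 4, 261 without control 2 and imiquimod 2, and 1189 at the looser threshold, an adjusted p below 0.1. The causes of the changes with tumours left out were not tested. Probes near the dim limit show little of Esr1, Pgr, Stat5b, Foxa1 and Ehf.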
